A study of Mus musculus with 6 samples.

Results

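Ribosome biogenesis was examined in adult neural stem cells through 50 listed genes that encode RNA polymerase I and the nucleolar factors that process ribosomal RNA and assemble ribosomal subunits. A gene entered when the platform annotation paired at least 1 probe set with that gene alone, and the brightest such probe set by its mean over all 6 arrays stood for it. This held for 48 of the 50 genes, out of 18193 genes on the array with such a probe set. Npm3 was not analysed here, and the probe set of Mrto4 is shared in the annotation with 2 pseudogenes, so it was not used. All 48 genes were bright enough to be tested, among 11575 tested genes. The rule uses no difference between the groups.

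The cells came from the ventricular-subventricular zone of adult mouse brains, the region along the lateral ventricles where neurons are made throughout life. Quiescent stem cells were sorted as GFAP::GFP+CD133+CD24- cells and activated stem cells as GFAP::GFP+CD133+EGFR+CD24- cells, so both carried the GFP reporter of the GFAP promoter and the surface protein CD133 and lacked CD24. The labels name a gate on the EGF receptor for the activated cells only, and no treatment or further genotype for either group. RNA was measured on 3 arrays per group, called biological replicates in the labels. Whether an array held cells of 1 animal or of several is not given in the sources used here. Because total RNA of sorted bulk cells was amplified and each array was scaled to a common mean, fewer cells of a type and less RNA per cell cannot be told apart.

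A cell makes ribosomes in the nucleolus, where RNA polymerase I copies the ribosomal RNA genes into a long precursor. Small nucleolar ribonucleoproteins (snoRNPs) modify that precursor, the small subunit processome and the large subunit assembly factors cut and fold it, and ribosomal proteins join along the way. The process takes a large share of the energy of a growing cell and is known to be turned up when resting cells enter the cell cycle.

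Values are log2 signals. A difference is the activated mean minus the quiescent mean in log2 units, shown ± its SE from limma beside the Benjamini-Hochberg adjusted p over all tested genes (n = 3 arrays per group). A gene is said to rise or fall only where that p was under 0.05. Probe sets differ in how strongly they bind, so signals are compared within a gene and not between genes.

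Several properties of the arrays moved with the groups. The signal of the hybridisation controls was 14.33 ± 0.53 (SD) on quiescent and 13.69 ± 0.05 on activated arrays, background was 5.67 ± 0.37 and 4.60 ± 0.07, and the 3′ minus 5′ difference of the Gapdh controls was 2.05 ± 0.52 and 1.37 ± 0.17 (two-sided exact permutation p = 0.1 for each, the smallest possible for 3 against 3 arrays). Quiescent array 1 stood apart, with the highest controls (14.94) and background (6.10). Without it 20 of the 48 genes rose, beside 15.1% of all tested genes. Against the sort labels, Egfr rose by 2.11 ± 0.24 in the cells gated on its protein and Prom1 (CD133) fell by 1.22 ± 0.32. Gfap fell by 4.18 ± 0.58 from levels well above background in quiescent cells. Cd24a, the gene of the CD24 protein that both gates exclude, read 7.99, 9.31 and 10.48 on quiescent and 13.36, 13.52 and 13.29 on activated arrays. Its RNA rose by 4.13 ± 0.50 (adjusted p = 0.000223), and it is among the neuroblast markers counted below. Why it rose in cells sorted as CD24- was not tested. The stem cell factor Sox2 read 12.51 ± 0.10 (SD) and 12.10 ± 0.10. Of the 15 listed stem cell and astrocyte markers all were tested and none was at background on every array of a group, while 12 fell and 1 rose. Their summed linear signal was 169391 to 259530 on quiescent and 52172 to 62638 on activated arrays. All 7 tested markers of activated cells and progenitors rose (summed signal 7669 to 14905 against 63217 to 68302), as did 4 of 8 neuroblast markers (3554 to 9672 against 31225 to 37884). Mature oligodendrocyte markers fell in 9 of 9 cases (21099 to 81093 against 2378 to 6210), ependymal markers in 3 of 4 (4123 to 6452 against 480.4 to 591.8), endothelial markers in 3 of 3 (1124 to 3735 against 105.0 to 193.4) and pericyte markers in 3 of 4 (4588 to 8475 against 270.6 to 538.2). Of the 8 mature neuron markers 5 were tested and 2 rose (1134 to 2021 against 2079 to 4184). The single tested microglial marker of 9 did not pass (391.6 to 732.3 against 158.4 to 209.4). The brightness limit of 6.02 applied to the mean over 6 arrays. Some called markers were thus tested only through the group where they were high. Activated means were under it for Cldn5, Flt1 and Tek (4.83, 5.47 and 4.21), Rgs5, Vtn, Ccdc153, Mog, Mag, Ermn and Opalin. The quiescent mean of the neuron marker Rbfox3 was under it (4.32). For these genes the filter favoured the direction found. Pecam1, Kdr and Tek of the endothelial list, Kcnj8, Abcc9 and Anpep of the pericyte list and Tm4sf1 of the ependymal list were at background on all activated arrays. Aif1, Tmem119 and C1qa of the microglial list were at background on all 6 arrays, and Ptprc of that list on the 3 quiescent arrays. The part of these properties and cell types in the differences below was not tested.

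Genes of ribosome biogenesis were higher in activated stem cells or did not pass the test. Of the 48 tested, 18 rose and 0 fell, a share of 37.5% that rose, where 17.3% of all tested genes rose and 17.6% fell. The median difference over the 48 genes was 1.01, beside 0.01 over all tested genes. At an unadjusted limma p under 0.05, 27 were higher and 0 lower, where 23% of all tested genes were higher at that limit and 23% lower. The fitted difference was above 0 for 45 of the 48, and for 5821 of the 11575 tested genes. All activated arrays lay above all quiescent arrays for 29 of the 48 genes, beside 25.1% of all tested genes, and the reverse held for 0, beside 25.5%. Without activated array 2 the number that rose was 11, beside 11.4% of all tested genes. After each array was scaled to its hybridisation controls it was 32, beside 26.4% of all tested genes. That scaling adds 0.64 to the difference of every gene, and it raised the median of all tested genes to 0.66 and the median over the 48 genes to 1.65.

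The 3 quiescent arrays were less alike than the 3 activated arrays for these genes. The median SD over the 48 genes was 0.54 among quiescent and 0.29 among activated arrays, and over all tested genes it was 0.53 and 0.35. The median deviation of the 48 genes from their own means over the 6 arrays was -0.23, -0.48 and -0.70 on quiescent arrays 1, 2 and 3, against 0.56, 0.57 and 0.38 on the activated arrays. Quiescent array 3 thus had the lowest and quiescent array 1 the highest typical level of its group. Of the 48 genes 29 (60.4%) were lowest within their group on quiescent array 3, compared with 34.4% of all tested genes. Without quiescent array 3 the median difference over the 48 genes was 0.80.

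**Figure D1:**
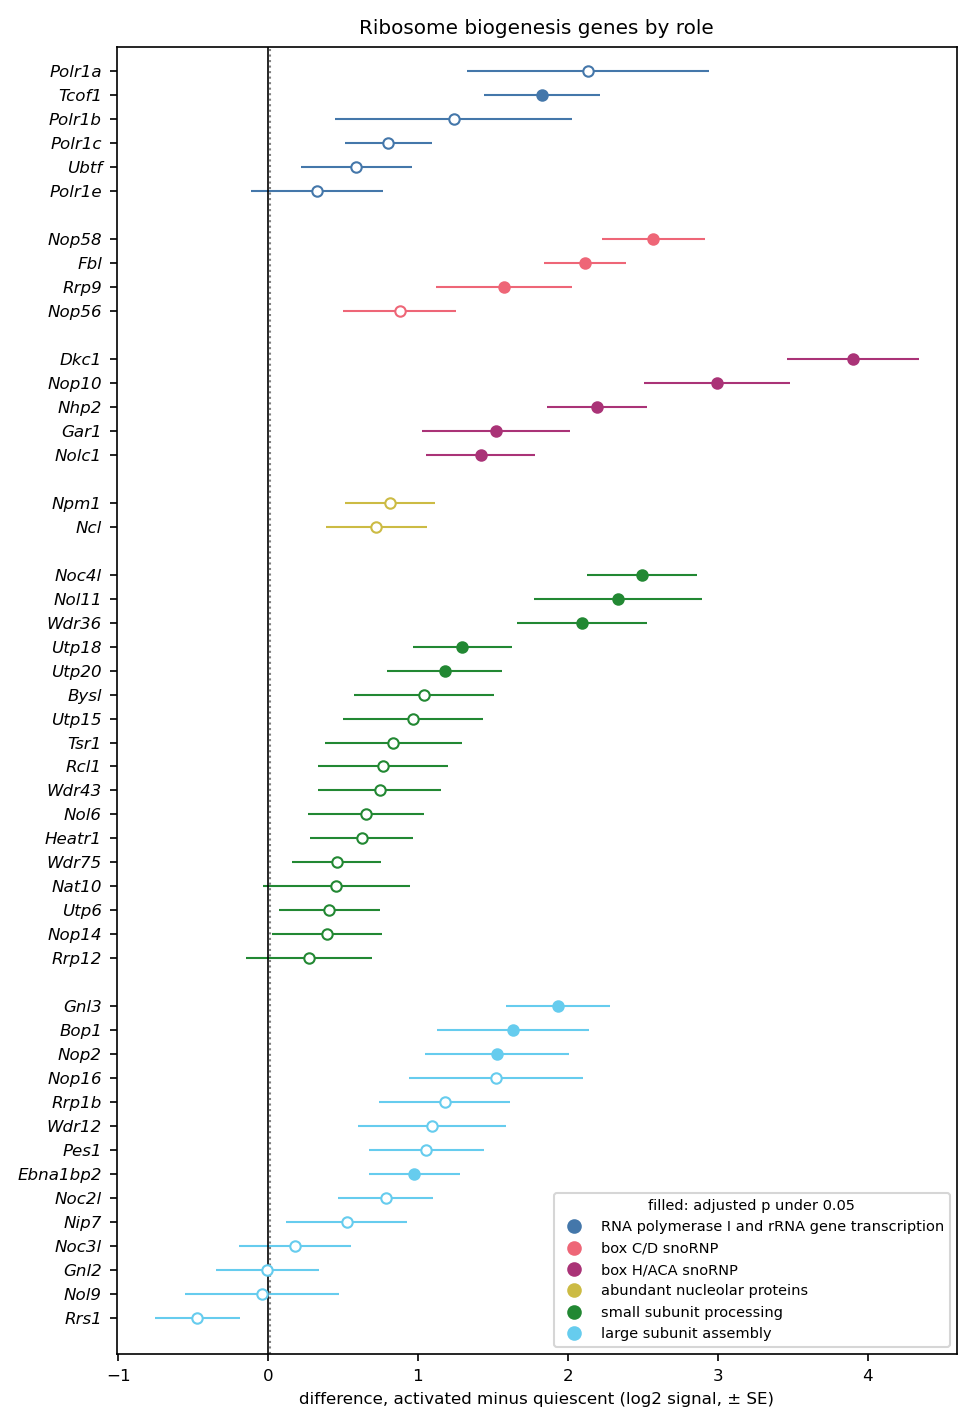
Difference between activated and quiescent arrays (activated minus quiescent, log2 signal, horizontal axis) for the 48 tested genes, grouped and coloured by role, with bars for the SE of the limma fit and filled points for an adjusted p under 0.05. All 5 genes of the box H/ACA group, with the chaperone Nolc1 among them, are filled. The only points left of 0 are Gnl2, Nol9 and Rrs1 of the large subunit group. The dotted line marks the median of all tested genes, 0.01.

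Promoter sequence was examined because the genes moved mostly in one direction and many ribosome biogenesis genes are known targets of Myc family factors, which bind the palindrome CACGTG (the E-box, the same on both strands). RefSeq promoter windows of build GRCm38.p6, from 250 bases before to 50 after a transcript start, were matched for 40 of the 50 listed genes. Not matched were Bop1, Fbl, Gnl2, Nol6, Npm1, Rrp12, Rrs1, Tcof1, Utp6 and Wdr36. CACGTG stood in a window of 7 of these 40 genes (17.5%), compared with 11.9% of the 9431 tested genes with a window and 8.09% of all 27025 genes with one. The 7 genes were Nol11, Nop2, Utp18, Utp20, Pes1, Tsr1 and Wdr43. Among genes with a window, 4 of the 14 that rose and 3 of the 24 that did not pass the test held it. A match is a description of these letters and not evidence of binding. Shown are the promoters of the 3 genes with the largest significant difference that hold the motif, from 100 bases before the start to 50 after it, 5′ to 3′ on the strand of the gene, with CACGTG in capitals.
Nol11 (chr11:107189332-107189481, minus strand): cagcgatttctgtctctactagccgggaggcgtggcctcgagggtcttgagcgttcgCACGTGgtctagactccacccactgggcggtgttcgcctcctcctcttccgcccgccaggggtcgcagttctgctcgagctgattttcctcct
Nop2 (chr6:125131783-125131932, plus strand): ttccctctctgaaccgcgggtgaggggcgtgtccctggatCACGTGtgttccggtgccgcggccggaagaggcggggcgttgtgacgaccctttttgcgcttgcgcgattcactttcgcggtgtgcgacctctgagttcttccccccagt
Utp18 (chr11:93885717-93885866, minus strand): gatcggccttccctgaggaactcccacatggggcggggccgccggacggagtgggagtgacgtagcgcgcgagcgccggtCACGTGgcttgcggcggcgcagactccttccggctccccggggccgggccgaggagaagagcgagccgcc
The first base of the motif lies at -43 in Nol11, -60 in Nop2 and -20 in Utp18, counted from the transcript start. The differences of these 3 genes were 2.34, 1.53 and 1.30, and their array values are given with their roles below.

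RNA polymerase I and its dedicated factors were above 0 in all 6 cases, but 1 of 6 rose. That share of 16.7% was near the 17.3% of all tested genes that rose. Tcof1 encodes treacle, a nucleolar scaffold that promotes transcription of the ribosomal RNA genes. Its signal was 8.38, 9.34 and 8.16 on quiescent arrays 1 to 3 and 10.36, 10.65 and 10.35 on activated arrays 1 to 3. The groups did not overlap, and Tcof1 rose by 1.83 ± 0.39 (adjusted p = 0.00466), or 3.55-fold. Its other probe sets rose by 2.15 ± 0.44 (adjusted p = 0.00428) and 2.00 ± 0.50 (adjusted p = 0.0116), and its call held in all 18 alternatives tried.

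Polr1a, the largest catalytic subunit, read 5.12, 7.997 and 8.63 on quiescent arrays and 8.75, 9.33 and 10.07 on activated arrays. Quiescent array 1 was below its background of 6.10, and quiescent array 3 came within 0.12 of activated array 1. The difference of 2.13 ± 0.81 did not pass (adjusted p = 0.0628) and had a 95% interval of 0.35 to 3.92. Without quiescent array 3 it passed (adjusted p = 0.0171), while without quiescent array 1 it was 1.07 (adjusted p = 0.126). A further Polr1a probe set was 1.48 ± 0.46 higher (adjusted p = 0.0305), and another bright one differed by 1.16 ± 0.49 without passing (adjusted p = 0.0957). The second catalytic subunit, Polr1b, had 1 quiescent array at background and differed by 1.24 ± 0.79 (adjusted p = 0.244). The quiescent mean of its only probe set, 5.97, was under the brightness limit of 6.02, so Polr1b was tested only through its activated arrays.

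The remaining 3 genes of this role differed by less. Polr1c, a subunit shared with RNA polymerase III, read 11.15, 10.61 and 10.34 against 11.40, 11.42 and 11.68, with no overlap but an adjusted p of 0.053 for a difference of 0.80 ± 0.29. Ubtf, which binds ribosomal DNA and keeps it open for transcription, differed by 0.59 ± 0.37 (adjusted p = 0.238), and its second probe set by 1.68 ± 0.36 (adjusted p = 0.00547). Polr1e, a subunit of the initiation-competent enzyme, differed by 0.33 ± 0.44 (adjusted p = 0.586), and its second probe set by 1.86 ± 0.53 (adjusted p = 0.0228). The name of the brightest Polr1e probe set ends in _x_at, which marks probes that may cross-hybridise. In the limma fit without cross-hybridising probe sets Polr1e passed (adjusted p = 0.0202). Without quiescent array 1, Polr1b (adjusted p = 0.0482), Polr1c (adjusted p = 0.0231) and Ubtf (adjusted p = 0.031) passed. In that setting 4 of 6 genes rose, beside 15.1% of all tested genes. Without quiescent array 3, 2 rose, beside 21.1% of all tested genes. In the other direction, Polr1b differed by 0.56 (adjusted p = 0.596) without quiescent array 2, and Ubtf by 0.32 (adjusted p = 0.486) without quiescent array 3.

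The box C/D snoRNPs place methyl groups on the sugars of ribosomal RNA. Their protein genes rose in 3 of 4 cases (75%, beside 17.3% of all tested genes), with a median difference of 1.84. Nop58, a core scaffold protein, read 9.11, 10.12 and 9.0 on quiescent and 12.07, 12.06 and 11.81 on activated arrays. The activated arrays lay within 0.26 of each other and at least 1.69 above the highest quiescent array, number 2. Nop58 rose by 2.57 ± 0.34 (adjusted p = 0.00035), or 5.94-fold.

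Fbl, the methyltransferase fibrillarin, read 10.48, 10.27 and 9.84 against 12.40, 12.43 and 12.10. The groups were well apart, and Fbl rose by 2.11 ± 0.27 (adjusted p = 0.000303) on this probe set and by 1.86 ± 0.42 on its second (adjusted p = 0.0073). Rrp9, which binds the U3 snoRNA needed for cleavage of the precursor, read 7.83, 7.70 and 7.02 against 9.51, 9.20 and 8.57 and rose by 1.58 ± 0.45 (adjusted p = 0.0215). Rrp9 did not pass when activated array 1 was left out (adjusted p = 0.0965) or when activated array 2 was (adjusted p = 0.0766).

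Nop56, the partner of Nop58 in the same particle, gave different answers on its 2 probe sets. The brightest read 11.97, 11.97 and 10.50 on quiescent and 12.38, 12.25 and 12.44 on activated arrays, so quiescent array 3 was low and the other quiescent arrays came near the activated ones. Its difference was 0.88 ± 0.38 (adjusted p = 0.0949), and without quiescent array 3 it was 0.39 (adjusted p = 0.155). The dimmer probe set read 8.50, 9.11 and 9.28 against 11.66, 11.90 and 11.45, with no quiescent array near the activated group, and differed by 2.71 ± 0.32 (adjusted p = 0.000206). The name of the brightest probe set ends in _s_at, which marks probes shared between transcripts.

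The box H/ACA snoRNP genes rose in 5 of 5 cases (100%, beside 17.3% of all tested genes), with a median difference of 2.20. This group holds the core proteins Dkc1, Nop10, Nhp2 and Gar1, and also Nolc1, which is a chaperone of snoRNPs and not a core protein. These particles convert chosen uridines of ribosomal RNA to pseudouridine. Dkc1 encodes dyskerin, the pseudouridine synthase, which is also a part of telomerase. It read 8.95, 8.79 and 10.60 on quiescent and 13.13, 13.64 and 13.28 on activated arrays. Here quiescent array 3 was the highest of its group, against the pattern of most of the 48 genes, and still lay 2.53 below the lowest activated array.

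Dkc1 rose by 3.90 ± 0.44 (adjusted p = 0.000148), or 15-fold, the largest difference among the 48 genes on their brightest probe sets. It ranked 165 from the top among all tested genes. The other Dkc1 probe sets rose by 1.82 ± 0.37 (adjusted p = 0.00387) and 1.29 ± 0.35 (adjusted p = 0.0185), so the direction was shared and the size was not. The brightest Dkc1 probe set is an _s_at one, and the others are not.

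Nop10, a small protein that holds the catalytic domain of dyskerin, read 9.60, 10.18 and 11.89 against 13.56, 13.30 and 13.80. Quiescent array 3 was again the highest of its group. Nop10 rose by 2.99 ± 0.49 (adjusted p = 0.00109), or 7.97-fold, and by 2.58 ± 0.43 on its second probe set (adjusted p = 0.00134). Nhp2, an RNA-binding core protein, read 10.09, 10.09 and 9.01 against 11.96, 11.90 and 11.92. Its activated arrays lay within 0.06 of each other, and Nhp2 rose by 2.20 ± 0.34 (adjusted p = 0.000775) and by 2.49 ± 0.37 on its second probe set (adjusted p = 0.000727).

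On its only probe set, an _s_at one, Gar1, the fourth core protein, was less certain. It read 11.89, 10.72 and 9.47 on quiescent and 12.43, 12.02 and 12.19 on activated arrays, so quiescent array 1 lay just below activated array 2 and quiescent array 3 far below both. Gar1 rose by 1.52 ± 0.50 (adjusted p = 0.036). That call was lost without any single array except quiescent array 1, with adjusted p of 0.0525 (without quiescent array 3, where the difference was 0.91) to 0.108 (without activated array 1). Nolc1, a chaperone of snoRNPs in the nucleolus and the Cajal body, read 8.89, 8.98 and 9.47 against 10.49, 11.07 and 10.04 and rose by 1.42 ± 0.36 (adjusted p = 0.0124), which did not pass when activated array 2 was left out (adjusted p = 0.0693). Its further probe sets differed by 2.77 ± 0.48 (adjusted p = 0.0017) and 0.52 ± 0.49 (adjusted p = 0.445). Without activated array 2, 3 of the 5 genes rose, beside 11.4% of all tested genes.

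**Figure D2:**
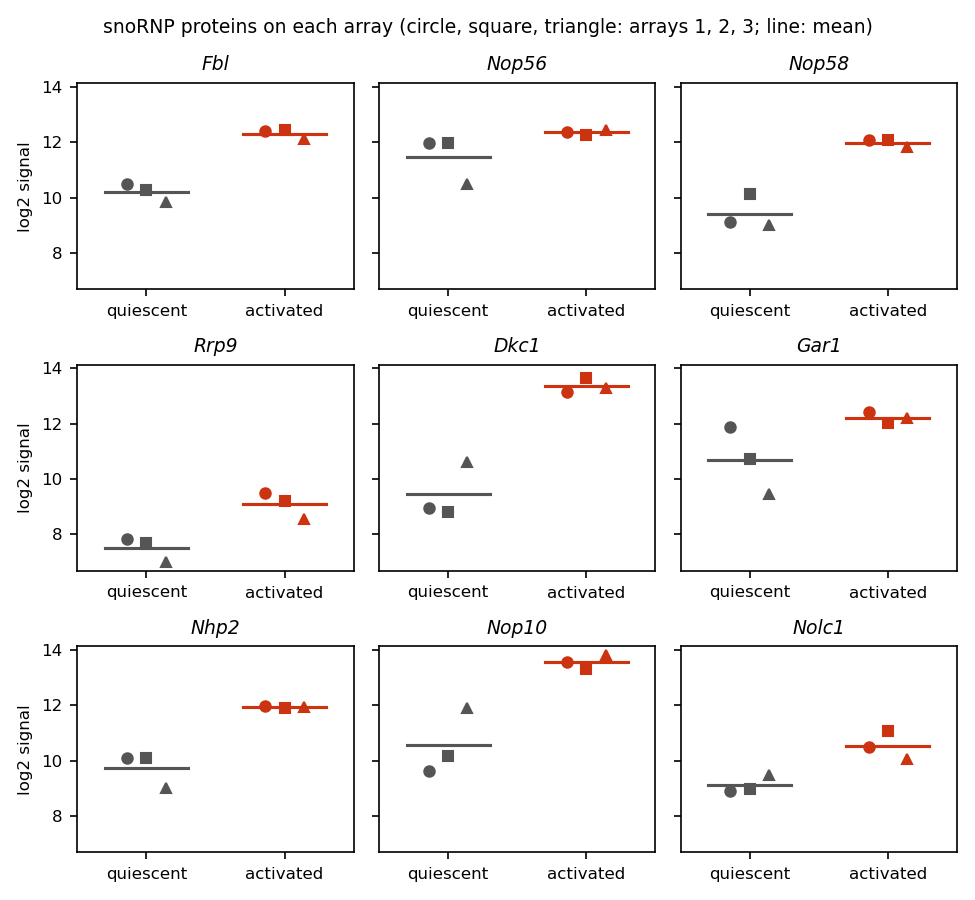
Log2 signal (vertical axis) of the 4 box C/D and 5 box H/ACA genes on each of the 3 quiescent (grey) and 3 activated (red) arrays, with array number shown by symbol and group means as lines. No quiescent point reaches an activated point in any panel; Dkc1, Nop10 and Nolc1 have their highest quiescent value on array 3 (triangle), while the other 6 genes have their lowest there.

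Ncl and Npm1 encode nucleolin and nucleophosmin, abundant nucleolar proteins that act as chaperones of ribosomal RNA and of assembling subunits. On their brightest probe sets 0 of these 2 rose in limma, and 1 had an unadjusted p under 0.05. Ncl read 12.24, 12.61 and 11.30 on quiescent and 13.06, 12.63 and 12.61 on activated arrays, and Npm1 read 13.29, 13.57 and 12.46 and 13.95, 14.11 and 13.70. In both genes the groups did not overlap and quiescent array 3 was the lowest. The differences were 0.72 ± 0.34 for Ncl (adjusted p = 0.119, 95% interval -0.02 to 1.47) and 0.81 ± 0.30 for Npm1 (adjusted p = 0.0577, 95% interval 0.15 to 1.48). Npm1 passed without quiescent array 2 (adjusted p = 0.0367). Without quiescent array 3 the difference was 0.49 (adjusted p = 0.0722) for Npm1 and 0.35 (adjusted p = 0.254) for Ncl.

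Their dimmer probe sets gave larger values. The 4 further Ncl probe sets differed by 1.31 ± 0.31, 1.36 ± 0.42, 1.43 ± 0.37 and 1.5 ± 0.35, each with an adjusted p under 0.05. The second Npm1 probe set read 11.58, 12.003 and 11.00 against 13.06, 12.94 and 12.95, a difference of 1.46 ± 0.28 (adjusted p = 0.00329).

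Small subunit processing genes rose in 5 of 17 cases (29.4%, beside 17.3% of all tested genes). All 17 differences were above 0, with a median of 0.77. Noc4l, a factor of small subunit export and maturation, read 10.60, 10.21 and 10.04 on quiescent and 12.06, 12.76 and 13.52 on activated arrays. The groups were at least 1.45 apart, and Noc4l rose by 2.50 ± 0.37 (adjusted p = 0.000602), or 5.64-fold. Its 3 further probe sets rose by 1.37 ± 0.31, 1.86 ± 0.55 and 2.81 ± 0.77. On the probe sets with 1.86 and 2.81, quiescent array 1 read 5.92 and 4.11, below its background of 6.10. The brightest Noc4l probe set and the one with 1.37 are _x_at ones.

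Nol11, a processome subunit that also supports transcription by RNA polymerase I and whose promoter is printed above, read 6.46, 7.22 and 8.53 against 9.27, 10.31 and 9.63. Its quiescent arrays were spread over 2.07 and stayed below every activated array. Nol11 rose by 2.34 ± 0.56 (adjusted p = 0.00898), but its 3 further probe sets differed by -0.97 ± 0.73, 0.84 ± 0.41 and 2.11 ± 0.91 without passing, and the mean of its probe sets did not pass either (adjusted p = 0.0678). Wdr36, a scaffold protein of the processome, read 7.09, 7.79 and 8.11 against 9.51, 10.27 and 9.49 and rose by 2.09 ± 0.44 (adjusted p = 0.00437), while its second probe set differed by 1.06 ± 0.46 (adjusted p = 0.102).

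Utp18 and Utp20 are processome subunits with smaller differences. Utp18 read 9.29, 9.23 and 9.20, nearly the same on each quiescent array, against 10.43, 10.16 and 11.02. It rose by 1.30 ± 0.33 (adjusted p = 0.012), which did not hold with activated array 3 left out (adjusted p = 0.0674) or with the mean of its probe sets, 1 of them dim (difference 0.17, adjusted p = 0.825). Utp20 read 8.24, 7.91 and 8.68 against 9.68, 9.28 and 9.40 and rose by 1.18 ± 0.38 (adjusted p = 0.0355). The Utp20 call was lost without any single array except quiescent array 3 (adjusted p = 0.0588 to 0.126) and with the replicate number as a block (adjusted p = 0.0527). Without activated array 3, 3 of the 17 genes rose, beside 11.97% of all tested genes.

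The other 12 small subunit genes did not pass, with differences of 0.27 to 1.04. Bysl, a factor of small subunit maturation known from proliferating cells, had probe sets that differed widely. Its probe set with the higher mean read 7.001, 7.69 and 7.97 on quiescent and 8.67, 8.19 and 8.94 on activated arrays, a difference of 1.04 ± 0.47 (adjusted p = 0.106) with no overlap. The other read 2.41, 3.43 and 6.78 against 8.94, 8.92 and 12.27. Quiescent arrays 1 and 2 were below background there and activated array 3 was far above the rest, and the difference was 5.84 ± 1.17 (adjusted p = 0.00382). Its quiescent mean of 4.21 was under the brightness limit of 6.02, so it was tested only through its activated arrays, and with values raised to background its difference was 3.93.

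Nol6, a core processome protein, showed a like split. Its brightest probe set read 9.30, 9.17 and 8.61 against 9.23, 10.21 and 9.61, which overlapped (0.66 ± 0.39, adjusted p = 0.208). Its dimmer one read 4.95, 4.93 and 8.60 against 8.46, 9.30 and 10.18 and differed by 3.15 ± 0.92 (adjusted p = 0.0243). Quiescent arrays 1 and 2 were below background on it, while quiescent array 3 was above activated array 1.

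The processome subunits that also act in transcription of ribosomal DNA, beside Nol11, were Utp15 (difference 0.97 ± 0.47), Wdr43 (0.74 ± 0.41), Heatr1 (0.62 ± 0.35) and Wdr75 (0.46 ± 0.30), with adjusted p of 0.131, 0.182, 0.182 and 0.252. Heatr1 and Wdr75 did not overlap between groups, and the other pair did. Tsr1, a GTPase-like factor of late small subunit assembly, differed by 0.84 ± 0.46 (adjusted p = 0.179) and passed without quiescent array 1 (adjusted p = 0.0431), while without quiescent array 3 it differed by 0.32 (adjusted p = 0.48). Rcl1, a factor of precursor cleavage, differed by 0.77 ± 0.44 (adjusted p = 0.193) with no overlap. Nat10, the acetyltransferase of the small subunit RNA, differed by 0.46 ± 0.49 (95% interval -0.63 to 1.54), Utp6 by 0.41 ± 0.34, Nop14 by 0.39 ± 0.37 and the export factor Rrp12 by 0.27 ± 0.42 (95% interval -0.66 to 1.20). For these last 4 genes the arrays of the groups overlapped.

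Large subunit assembly genes rose in 4 of 14 cases (28.6%, beside 17.3% of all tested genes). Their median difference was 1.02, and they were the only role with differences below 0. Gnl3 encodes nucleostemin, a nucleolar GTPase known from stem and tumour cells. It read 9.05, 9.38 and 8.54 on quiescent and 10.73, 11.34 and 10.70 on activated arrays. The groups were 1.32 apart at their nearest, and Gnl3 rose by 1.94 ± 0.35 (adjusted p = 0.00192), or 3.83-fold, in this fit and in all 18 alternatives. Its relative Gnl2, a GTPase of the same assembly path, read 12.30, 11.54 and 10.94 against 11.42, 11.83 and 11.52. The Gnl2 arrays overlapped on this probe set, with a difference of -0.0036 ± 0.34 (adjusted p = 0.995, 95% interval -0.76 to 0.76). Its dimmer probe sets differed by 1.08 ± 0.42 (adjusted p = 0.0702), with no overlap, and by -0.35 ± 0.43 (adjusted p = 0.561).

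Bop1, Pes1 and Wdr12 form the PeBoW complex, which processes the precursor of the large subunit RNAs. Bop1 read 7.62, 9.09 and 9.56 against 9.81, 10.59 and 10.77, with quiescent array 1 the lowest, and rose by 1.64 ± 0.51 (adjusted p = 0.029). That call was lost without quiescent array 1 (difference 1.07, adjusted p = 0.072), activated array 2 (adjusted p = 0.094) or activated array 3 (adjusted p = 0.107), and with the mean of its probe sets (difference 0.83, adjusted p = 0.118). Pes1 read 8.99, 8.86 and 8.04 against 9.77, 9.48 and 9.81, with no overlap, and differed by 1.05 ± 0.38 (adjusted p = 0.0545). Wdr12 read 8.53, 10.43 and 8.55 against 10.40, 10.04 and 10.36.

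Quiescent array 2 was above activated arrays 1, 2 and 3 for Wdr12, whose difference was 1.10 ± 0.50 (adjusted p = 0.109). Its second probe set differed by -0.45 ± 0.47 (adjusted p = 0.487). Pes1 passed without quiescent array 1 (adjusted p = 0.0451) and Wdr12 without quiescent array 2 (adjusted p = 0.00791).

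Nop2, a methyltransferase of the large subunit RNA whose promoter is printed above, read 7.49, 7.74 and 8.99 on quiescent and 9.52, 10.11 and 9.19 on activated arrays. It rose by 1.53 ± 0.48 (adjusted p = 0.0316), although quiescent array 3 came within 0.20 of activated array 3. The call was lost without quiescent array 1 or 2 or activated array 1 or 2 (adjusted p = 0.0782 to 0.13). Ebna1bp2, an early assembly factor, read 9.64, 10.10 and 9.39 against 10.65, 10.77 and 10.64. It rose by 0.98 ± 0.30 (adjusted p = 0.03), a call lost without quiescent array 1 or any activated array (adjusted p = 0.0629 to 0.105).

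The other large subunit genes did not pass. Nop16 read 7.36, 7.01 and 7.96 against 9.71, 9.45 and 7.73, so activated array 3 fell among the quiescent values, and differed by 1.52 ± 0.58 (adjusted p = 0.0641). It passed without activated array 3 (adjusted p = 0.0166) and without quiescent array 3 (adjusted p = 0.044), while its second probe set differed by -0.48 ± 0.57. Rrp1b, a nucleolar regulator of phosphatase activity, differed by 1.18 ± 0.44 (adjusted p = 0.0585) and passed without quiescent array 1 (adjusted p = 0.0228). Noc2l differed by 0.78 ± 0.32 (adjusted p = 0.0789) with no overlap, and its second probe set by -1.19 ± 0.78 (adjusted p = 0.263). Nip7 differed by 0.52 ± 0.40 (adjusted p = 0.334) and Noc3l by 0.18 ± 0.37 (adjusted p = 0.725). Without activated array 1, 2 of the 14 genes rose, beside 12.2% of all tested genes. Without activated array 2 only Gnl3 did, beside 11.4% of all tested genes.

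Below 0 beside Gnl2 were Rrs1 and Nol9. Rrs1, which brings the 5S ribonucleoprotein into the large subunit, read 12.88, 12.28 and 12.06 on quiescent and 11.66, 11.99 and 12.15 on activated arrays. The arrays overlapped and the difference was -0.47 ± 0.28 (adjusted p = 0.215, 95% interval -1.10 to 0.15), against 0.01 ± 0.32 on its second probe set. The brightest Rrs1 probe set is an _x_at one, and the second is not. Nol9, a polynucleotide kinase of precursor processing, differed by -0.04 ± 0.51 (adjusted p = 0.96) on its brightest of 5 probe sets and by -0.39 to 1.24 on the others. Because scaling to the hybridisation controls adds 0.64 to every difference, all 3 lie above 0 on that scale whatever the gene. After quantile normalization the difference was -0.56 for Rrs1, -0.08 for Gnl2 and 0.12 for Nol9.

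Probe sets beyond the brightest were also mostly higher in activated cells. The 48 genes had 108 probe sets, of which 60 were further ones and 51 of those passed the brightness limit. In a fit over all 22607 bright probe sets of 1 gene, 23 of the 51 rose and 0 fell, where 15.6% of all probe sets in that fit rose. At an unadjusted limma p under 0.05, 32 were higher, where 21.6% of all probe sets were, and 0 lower. Their median difference was 1.24, 44 were above 0, and 10 had the opposite sign to the brightest probe set of their gene. These 10 belonged to 8 genes, which were Wdr12, Noc2l, Noc3l, Gnl2, Nop16, Rrs1, Nol9 and Nol11. Of the 30 genes that did not rise on the brightest probe set, 9 rose on a further one, namely Polr1a, Polr1e, Ubtf, Ncl, Npm1, Nop56, Rrp1b, Nol6 and Bysl. Counting any bright probe set, 27 of the 48 genes rose (56.3%), where 21% of all tested genes rose by that rule. Bysl is among them through a probe set bright in activated cells alone, and of the 49 further probe sets with both group means past the brightness limit 22 rose.

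**Figure D3:**
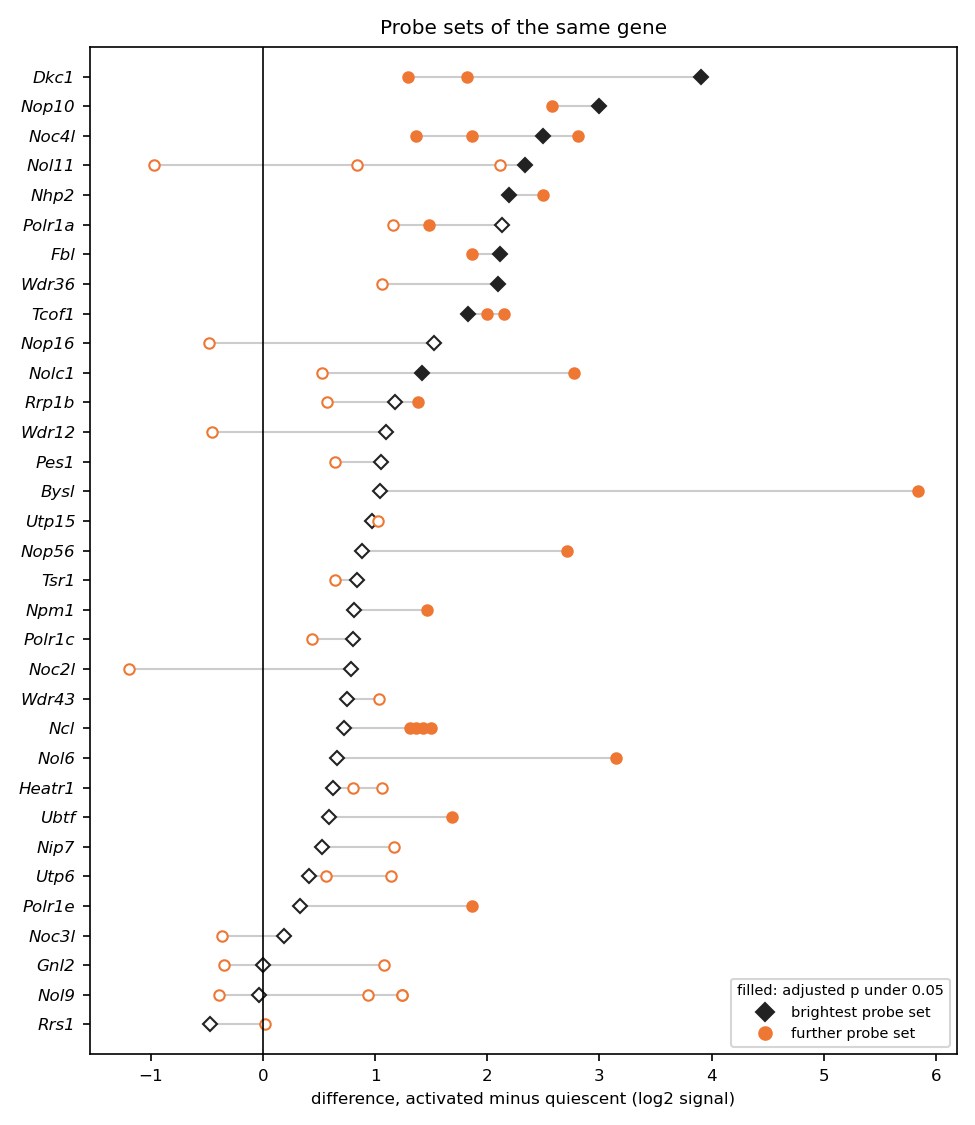
Difference (activated minus quiescent, log2 signal, horizontal axis) of every bright probe set of the genes that have more than 1, with the brightest probe set as a black diamond, further ones as orange circles, and filled symbols for an adjusted p under 0.05. Bysl spans 1.04 to 5.84 and Nol6 0.66 to 3.15, while Nop10, Nhp2, Fbl and Tcof1 have all their probe sets filled and close together.

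Ribosomal RNA itself was read by 3 control probe sets for the 18S RNA, the product that small subunit processing releases. Their mean signal was 16.09, 15.16 and 14.95 on quiescent arrays 1 to 3 and 14.62, 14.62 and 14.54 on activated arrays 1 to 3. All quiescent arrays were higher, with a difference of -0.81 (two-sided exact permutation p = 0.1). The hybridisation controls of the same arrays were also higher in the quiescent group, and the log2 18S signal minus that of these controls was 1.07 ± 0.14 (SD) in quiescent and 0.90 ± 0.03 in activated cells (exact permutation p = 0.2). How much ribosomal RNA entered the amplified material was not tested.

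Other genes of the pathway, not among the 50, were listed from textbook knowledge, with earlier results of these data known. They also rose or did not pass. Of 120 such genes 114 were tested, 47 rose (41.2%) and 0 fell, with a median difference of 0.94. Of all tested genes 17.3% rose and 17.6% fell. At an unadjusted limma p under 0.05, 58 were higher and 1 was lower, against the 23% of all tested genes each way at that limit. Without activated array 3 the number that rose was 29, beside 11.97% of all tested genes, and with hybridisation scaling it was 74, beside 26.4%. Without quiescent array 1 and without quiescent array 3, 1 gene fell in each.

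Among other polymerase I subunits and factors 3 of 14 rose (21.4%, near the 17.3% of all tested genes), with a median of 0.74. They were the subunit gene Znrd1 (1.87 ± 0.36, adjusted p = 0.00295), Rrn3, which makes the polymerase competent to start (1.58 ± 0.33, adjusted p = 0.00472), and the nucleolar regulator Mybbp1a (1.44 ± 0.43, adjusted p = 0.0239). Rrn3 read 8.66, 8.82 and 8.68 on quiescent and 10.62, 10.32 and 9.95 on activated arrays, with no overlap. The Mybbp1a call was lost without quiescent array 2, activated array 2 or activated array 3 (adjusted p = 0.0696 to 0.0985).

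Factors that build snoRNPs rose in 7 of 11 cases (63.6%, beside 17.3% of all tested genes), with a median of 1.56. The largest differences were those of the ATPases Ruvbl2 (2.38 ± 0.37, adjusted p = 0.000891) and Ruvbl1 (1.92 ± 0.57, adjusted p = 0.0243) and of their partner Pih1d1 (1.91 ± 0.53, adjusted p = 0.0173). Ruvbl2 read 8.69, 9.85 and 8.71 against 11.44, 11.74 and 11.20, with every activated array above every quiescent one. The Ruvbl1 call was lost without quiescent array 2 or 3 or activated array 3, whose value of 12.66 was far above the rest (difference 1.20 and adjusted p = 0.0833 without it), and the Pih1d1 call without quiescent array 2 or any activated array (adjusted p = 0.0507 to 0.0586) or with the mean of probe sets (difference 0.95, adjusted p = 0.251).

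In the other lists 12 of 34 small subunit factors (35.3%, median 0.74) and 17 of 41 large subunit factors (41.5%, median 0.97) rose. So did 8 of 14 genes of the RNA exosome, the nuclease complex that trims the precursor (57.1%, median 1.45). Of all tested genes 17.3% rose. Tbl3, a processome protein, rose by 2.63 ± 0.42 (adjusted p = 0.00104), the nucleolar factor Lyar by 2.34 ± 0.36 (adjusted p = 0.000758) and Imp3, a U3 snoRNP protein, by 2.23 ± 0.47 (adjusted p = 0.00463). On the large subunit side Nle1, which triggers a remodelling step, rose by 2.83 ± 0.68 (adjusted p = 0.00919), the ribosomal protein chaperone Grwd1 by 2.56 ± 0.49 (adjusted p = 0.00285) and Rpf2, the partner of Rrs1 in loading the 5S ribonucleoprotein, by 2.30 ± 0.29 (adjusted p = 0.00028). Rpf2 read 10.49, 10.77 and 11.29 against 13.55, 12.94 and 12.97, with the groups 1.64 apart at their nearest, where Rrs1 showed overlapping arrays. With the mean of its probe sets Rpf2 differed by 0.78 and did not pass (adjusted p = 0.102). The exosome subunits Exosc6 and Exosc8 rose by 1.96 ± 0.43 (adjusted p = 0.00598) and 1.96 ± 0.27 (adjusted p = 0.000439), and its nuclease Dis3 by 1.91 ± 0.36 (adjusted p = 0.00278).

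Of 13 listed regulators of ribosomal RNA genes 11 were tested. Of these 2 rose (18.2%) and 1 fell, beside 17.3% and 17.6% of all tested genes, with a median of -0.01, so the counts were near or under the background. Mycn, a Myc family factor of neural progenitors, read 9.59, 10.43 and 9.01 on quiescent and 12.77, 12.70 and 12.79 on activated arrays. All activated arrays were at least 2.26 above the highest quiescent one, and Mycn rose by 3.08 ± 0.35 (adjusted p = 0.000161), or 8.44-fold. Myc read 7.58, 7.58 and 8.96 against 7.81, 8.47 and 9.34, which overlapped, with a difference of 0.50 ± 0.56 (adjusted p = 0.509). The demethylase Kdm2b rose by 1.96 ± 0.30 (adjusted p = 0.000834). Baz2a, a subunit of the complex that silences ribosomal RNA genes, fell by 0.92 ± 0.31 (adjusted p = 0.0392). That call was lost in 11 of the 18 alternatives. They were leaving out any single array except quiescent array 3 (adjusted p = 0.0601 to 0.13), scaling by hybridisation controls (adjusted p = 0.661), the mean of probe sets (difference -0.40, adjusted p = 0.325), no cross-hybridising probe sets (adjusted p = 0.125), no filter (adjusted p = 0.0536), no variance trend (adjusted p = 0.0588) and the replicate block (adjusted p = 0.0528).

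**Figure D4:**
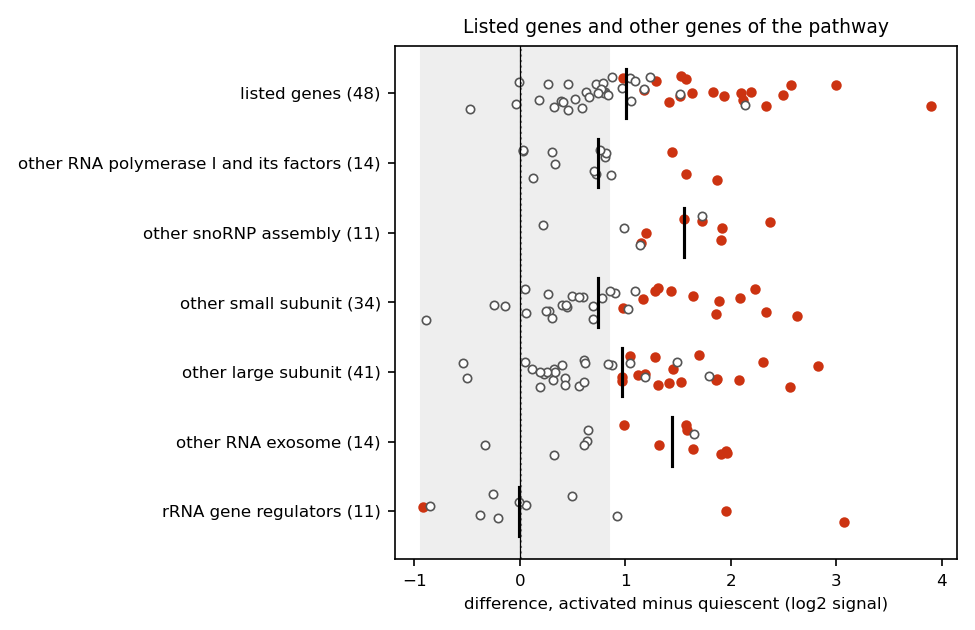
Difference (activated minus quiescent, log2 signal, horizontal axis) of the 48 listed genes and of the tested genes of 6 other lists, whose number stands in brackets, with red points for an adjusted p under 0.05, black bars for list medians and grey shading for the middle 50% of all tested genes (-0.94 to 0.85). The list medians are 0.74 to 1.56 for the pathway lists and -0.01 for the regulators.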

How the data were processed

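The authors deposited log2 signals, and the submitters' processing notes name MAS5 as the method. Its version is not given in the sources used here. The labels' protocols describe miRNeasy extraction of total RNA, Pico amplification and biotin labelling. Each of the 6 arrays has a 2% trimmed mean of linear signals near 500.0. Probe sets of exactly 1 gene were used (34945 of 45101), with symbols updated by Entrez identifier through a RefSeq table of GRCm38.p6. The brightest probe set stood for a gene, and genes with a mean at or above the 40th percentile of all probe sets other than the 64 controls (log2 6.02) were tested with lmFit and eBayes with a trend in limma 3.58.1 under R 4.3.3. The calculation was tested on simulated data. Background was the 95th percentile of 27 bacterial control probe sets. Precision is limited by 3 arrays per group. Figures were drawn with matplotlib 3.10.9.

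The genes, their roles and the lists were chosen with earlier results of these data known. All 50 genes are named, and from each other pathway list up to 3 genes with the largest significant difference in either direction. Promoters were printed for up to 3 genes that rose and hold CACGTG, by size of difference. Technical measures and 18S signals were compared with exact permutation tests. Alternatives were other scalings, pseudocounts, filters, probe set rules and variance models, values raised to background, the replicate number as a block, and each array left out in turn.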

Additional observations from a re-analysis of the deposited data

How the results depend on the processing

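Of the 18 genes that rose, 9 did so in all 18 alternatives tried (Tcof1, Fbl, Nop58, Dkc1, Nhp2, Nop10, Gnl3, Wdr36 and Noc4l). Of the 30 that did not pass, 18 rose in at least 1 alternative and 12 in none, and 0 of the 48 fell in any. The cause of the following changes was not tested, beyond the smaller number of arrays when 1 is left out. Scaling to the hybridisation controls gave 32 genes that rose, a median difference of 1.65, and by role 4 polymerase I, 2 nucleolar protein, 9 large subunit and 8 small subunit genes, with 74 other pathway genes, and 3059 higher and 943 lower genes over all (76.4% higher, against 49.6%). The number of polymerase I genes that rose, 1 in the main setting, was 2 with 16 added to linear signals, with values raised to background, without cross-hybridising probe sets and with the replicate block, and 3 with 64 added, with the mean of probe sets and with array quality weights. The number of nucleolar protein genes, 0 in the main setting with 2 tested (1 with an unadjusted limma p under 0.05), was 1 with 64 added, with values raised to background and with the replicate block, and 2 with the mean of probe sets. Without the variance trend 2 large subunit genes rose, and Gar1, Bop1, Ebna1bp2, Ruvbl1 and Mybbp1a did not pass (adjusted p = 0.0798, 0.0537, 0.0507, 0.0546 and 0.0604), and with the mean of probe sets 1 other pathway gene fell. Of the 30 genes that did not pass, 21 had a difference that moved by over 1.5 times or changed sign with 1 array left out. Leaving out 1 array at a time gave 11 to 20 genes that rose, beside 11.4% to 21.1% of all tested genes, with median differences of 0.80 to 1.07. By role it gave 1 to 4 polymerase I, 0 to 1 nucleolar protein, 2 to 3 box C/D, 3 to 5 box H/ACA, 1 to 5 large subunit and 3 to 5 small subunit genes, 29 to 49 other pathway genes that rose and 0 to 1 that fell, and 1315 to 2440 higher and 1540 to 2176 lower genes over all. Arrays of the same number did not deviate together (correlations of 0.06, -0.02 and 0.03 over the tested genes). With 3 arrays per group this cannot show whether same-numbered arrays shared animals or a sort, which the sources used here do not give. With the replicate block 19 of the 48 genes rose, beside 16.9% of all tested genes. Polr1a (adjusted p = 0.0171) and Npm1 (adjusted p = 0.0492) were among them, while Utp20 did not pass (adjusted p = 0.0527). MAS5 signals near background limit what can be said of Polr1a, Polr1b, the dimmer probe sets of Bysl and Nol6 and the dimmest ones of Noc4l.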
